A study of Rattus norvegicus with 12 samples.

Results

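The genes described are 8 hepatic genes of foreign-compound metabolism, chosen by name from a list of 32883 genes: 4 cytochrome P450 enzymes (Cyp2e1, Cyp1a2, Cyp2a1 and Cyp2d2), the flavin-containing monooxygenase Fmo1, and the receptors Nr1i3 (CAR), Nr1i2 (PXR) and Ahr. All 8 were present in every library and passed the filter on low counts in every fit across genes, so no member was lost to it. They were read across the liver lobule in nuclei, whole cells and tissue spots of healthy rats. The label under which they were grouped calls the enzymes pericentral, and this was checked against the data for each gene.

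Blood enters the liver lobule at the portal triads and leaves at the central vein, and hepatocytes along this path divide their work. Oxidation of drugs and solvents by P450s is classically assigned to the pericentral hepatocytes, and gluconeogenesis and urea synthesis to the periportal ones. CAR and PXR are nuclear receptors that pair with RXR and induce Cyp2b and Cyp3a genes, and AHR is a ligand-activated factor that pairs with ARNT and induces Cyp1a genes.

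All rats were male, healthy and untreated. Total liver homogenate (TLH) cells came from 2 Dark Agouti (DA) and 2 Lewis (LEW) rats after 2-step collagenase digestion, sequenced with 3′ v2 chemistry. Nuclei came from another 2 DA and 2 LEW rats, and immune-enriched cells from 1 rat of each strain, both with v3 chemistry. For the latter, hepatocytes were spun out at low speed and red cells depleted, so their parenchymal cells are those left after that removal. The file names of the nuclei repeat animal numbers of the TLH rats, although the design text describes added animals. Sections A and B of Wistar liver were read on Visium slides, on which a spot covers several cells. The labels give the TLH rats an age of 8 to 10 weeks. The study's methods give an older age and describe the strains as matched for it, while the file names put the LEW TLH rats above the DA ones, and a part of age in the strain differences was not tested. Both sections carry 1 animal number in their file names, while the study describes 2 Wistar rats. The p-values and SE of the fits treat libraries, not cells, as replicates. They rest on a spread estimated in part from all genes, so they can be narrower than a gene's own spread between rats. Nr1i3 in TLH cells, for example, had a mean log2 zonal ratio of 0.45 with an SD of 0.62 over 4 rats.

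The filters left 3844 to 7112 cells in each TLH library, 1163 and 2677 in the immune-enriched libraries of DA and LEW, and 2205 to 5262 nuclei, with median counts of unique molecular identifiers (UMIs) of 1794 to 2545.5, 4090 and 5581, and 1541.5 to 2059. The Visium sections held 2437 and 2404 spots with medians of 13773 and 14240.5 UMIs. Levels are given as CPM, UMIs of the summed cells scaled to a total of 1000000. Each cell was placed by 5 genes that are not members. A cell was called pericentral (PC) where it held more UMIs of Cyp7a1, Glul and Oat than of Sds and Hal, and periportal (PP) where it held fewer. This gave 488 to 2227 PC and 652 to 838 PP nuclei per rat.

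Parenchymal nuclei fell into clusters of 2 forms. Clusters with enough of the fixed hepatocyte markers were called hepatocyte-like, and those that led with no marker list were left unnamed but summed with them as parenchymal. Hepatocyte-like nuclei made up 37.6% to 76.9% of the 1956 to 4945 parenchymal nuclei of a rat, highest in LEW-1, and 48.7% to 75.1% of the PC against 10.1% to 39.3% of the PP nuclei. The receptors were far higher in the unnamed form (Nr1i3 566 to 1004 CPM against 31.0 to 111, Nr1i2 348 to 583 against 42.7 to 90.7), and Cyp1a2 was lower in it (87.2 to 175 CPM against 342 to 382). A zonal ratio over the pooled nuclei therefore also carries the mix of forms, and each member is given within both forms. Median UMIs were 1615 to 2028 in PC and 2222 to 3065.5 in PP nuclei. Endothelial markers summed to 140 to 245 CPM in PC and 91.4 to 129 in PP nuclei, and mesenchymal markers to 308 to 462 and 169 to 264, whose part in the ratios was not tested. Pairs of nuclei libraries shared 8 to 24 barcodes.

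The sequences before the gene starts are shown for 4 members that went different ways across the lobule: Cyp2e1 and Cyp1a2, which were higher at the pericentral end, Fmo1, which had the steepest ratio, and Nr1i2, which was higher at the periportal end. They are the 250 bases upstream of the RefSeq start on build GRCr8, read 5′ to 3′ on the gene's strand, whereas the counts were made on the older build Rnor 6.0. Capitals mark matches to motifs that were searched on both strands: AGGTCA and AGTTCA (nuclear receptor sites), GCGTG (the AHR core), CTTTGA (TCF sites), GTTAAT (HNF1), CAAAGT (HNF4) and TATAAA.
Cyp2e1, chr1:205269717-205269966, plus strand: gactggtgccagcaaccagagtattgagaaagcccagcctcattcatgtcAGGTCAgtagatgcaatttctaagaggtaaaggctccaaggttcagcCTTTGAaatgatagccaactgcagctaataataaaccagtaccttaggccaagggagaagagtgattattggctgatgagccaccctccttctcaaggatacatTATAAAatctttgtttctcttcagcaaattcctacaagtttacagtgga
Cyp1a2, chr8:66978150-66978399, minus strand: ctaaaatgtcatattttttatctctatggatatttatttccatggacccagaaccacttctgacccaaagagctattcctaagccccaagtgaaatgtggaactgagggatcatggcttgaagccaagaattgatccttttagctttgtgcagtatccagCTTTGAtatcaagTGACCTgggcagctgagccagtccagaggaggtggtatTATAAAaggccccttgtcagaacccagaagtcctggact
Fmo1, chr13:77747667-77747916, minus strand: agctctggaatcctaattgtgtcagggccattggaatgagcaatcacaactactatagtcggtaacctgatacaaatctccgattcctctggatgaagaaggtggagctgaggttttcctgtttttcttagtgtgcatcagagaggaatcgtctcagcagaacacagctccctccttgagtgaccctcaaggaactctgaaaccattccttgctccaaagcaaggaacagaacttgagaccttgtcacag
Nr1i2, chr11:75965467-75965716, plus strand: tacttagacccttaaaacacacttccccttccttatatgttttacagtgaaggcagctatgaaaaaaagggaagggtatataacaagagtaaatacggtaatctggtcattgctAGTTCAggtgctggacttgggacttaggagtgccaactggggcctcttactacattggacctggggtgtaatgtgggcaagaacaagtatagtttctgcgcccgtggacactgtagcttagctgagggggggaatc

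In the Cyp2e1 sequence the capitals are AGGTCA at -200, CTTTGA at -153 and TATAAA at -49, counted from the start. In Cyp1a2 they are CTTTGA at -90, AGGTCA on the opposite strand at -77 and TATAAA at -39, and in Nr1i2 AGTTCA at -136. Fmo1 held no match, nor did Nr1i3. Over the 300-base windows of 33469 promoters (with 50 bases after the start), AGGTCA was found in 16.2% and in 2 of the 8 members, CTTTGA in 16.1% and in 4, TATAAA in 14.2% and in 3. AGTTCA stood in 14.5% of windows, CAAAGT in 14.8% and GTTAAT in 7.45%, each in 1 member. GCGTG was in 29.7% and in none of the members. GC content was 45.7% to 54.7% in 7 members and 74.7% in Ahr. A match describes letters and not a bound site.

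Cyp2e1 oxidises ethanol, acetone and paracetamol. In all parenchymal nuclei it measured 528 CPM in PP and 1814 in PC nuclei of DA-1, 1321 and 3344 in DA-2, 1256 and 2622 in LEW-1, and 1052 and 2462 in LEW-2. It was higher in the PC nuclei of all 4 rats, and the zones did not overlap between rats. The fitted log2 difference was 1.56 ± 0.11 (SE, 4 rats, rat as block; edgeR quasi-likelihood, adjusted p = 4.8e-12). It was 1.18 ± 0.12 within hepatocyte-like nuclei (edgeR adjusted p = 6.7e-11) and 1.20 ± 0.07 within unnamed ones (edgeR adjusted p = 7.3e-52), values whose difference was not tested.

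Deep parenchymal cells of the immune-enriched libraries, those with at least 5000 UMIs, gave the same order. They numbered 51 PC and 68 PP cells in DA and 167 and 679 in LEW. Cyp2e1 stood at 1257 CPM (1208 to 1307, exact Poisson 95% interval) in PC and 285 (265 to 306) in PP cells of DA, and at 1603 (1569 to 1637) and 455 (447 to 464) in LEW. The log2 ratios were 2.14 and 1.82. Intervals cover counting error only, with 1 library per strain. Visium spots were ordered by the same 5 genes and cut into 3 groups of equal size, of which the outer ones are compared. Cyp2e1 went from 1216 CPM in the periportal to 1941 in the pericentral group of section A, and section B gave 1296 and 2214.

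Cyp1a2 oxidises caffeine and aromatic amines and is a target of AHR. Its PP and PC levels in nuclei were 72.1 and 334 CPM in DA-1, 67.3 and 393 in DA-2, 145 and 373 in LEW-1, and 103 and 355 in LEW-2. PC levels lay close together, while the PP level was higher in both LEW rats than in both DA rats. The fitted difference was 2.15 ± 0.15 (log2, SE, edgeR adjusted p = 8.5e-09), with 1.91 ± 0.17 in hepatocyte-like nuclei (edgeR adjusted p = 7.6e-10) and 1.44 ± 0.11 in unnamed ones (edgeR adjusted p = 2.2e-20). In deep immune-enriched cells it measured 401 CPM (374 to 430) in PC and 60.5 (51.4 to 70.7) in PP cells of DA, and 428 (411 to 446) and 48.6 (45.9 to 51.4) in LEW, a log2 ratio of 2.73 and 3.14. Cyp1a2 was thus steeper than Cyp2e1 in nuclei and deep cells of both strains, a difference that was not tested. Over the Visium end groups it was not steeper, at 643 and 927 CPM in section A and 654 and 1055 in B (log2 ratio 0.53 and 0.69, against 0.67 and 0.77 for Cyp2e1).

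Fmo1 oxidises nitrogen and sulphur in drugs and is no P450. It had the largest fitted difference of the 8 in pooled nuclei, in both forms and in TLH cells, and the largest ratio in deep cells and over the Visium end groups. In hepatocyte-like nuclei its mean log2 ratio (1.82) was just below that of Cyp1a2 (1.84). Nuclei held 55.6 CPM in PP and 294 in PC of DA-1, 30.2 and 237 in DA-2, 29.1 and 144 in LEW-1, and 40.4 and 134 in LEW-2. The zones did not overlap, and the PC level was higher in both DA rats. The log2 difference was 2.55 ± 0.14 (SE, edgeR adjusted p = 8.4e-11) and ranked 13 from the pericentral end among 9701 genes. In unnamed nuclei it was 2.84 ± 0.22 (edgeR adjusted p = 8.6e-05), with folds of 8.96 and 10.5 in DA and 7.32 and 3.7 in LEW. In hepatocyte-like nuclei it was 1.96 ± 0.26 (edgeR adjusted p = 9.2e-08), with folds of 1.35 and 7.39 in DA and 3.68 and 4.18 in LEW, on 5 to 16 UMIs per rat in PP nuclei. DA-1 thus had the smallest slope there.

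In the deep immune-enriched cells Fmo1 had its widest gap between zones. It was read with 277 UMIs in PC and 9 in PP cells of DA, or 138 CPM (123 to 156) and 3.47 (1.59 to 6.58), and with 724 and 91 UMIs in LEW, or 135 (125 to 145) and 3.68 (2.96 to 4.51). The log2 ratios of 5.32 and 5.20 ranked Fmo1 second (rank 2) among 3004 genes. Over the Visium end groups it went from 44.4 to 123 CPM and from 39.7 to 127, log2 1.47 and 1.68. PC cells of the DA immune-enriched library also held more endothelial markers (129 CPM against 22.0 in PP) and lymphocyte markers (98.5 against 3.47), while in LEW both were about level (31.3 against 33.5 and 2.79 against 4.24) beside a similar ratio of Fmo1. The part of these cells in the ratio was not tested.

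Cyp2a1, a testosterone 7α-hydroxylase, and Cyp2d2, a member of the drug-oxidising Cyp2d family, had shallow profiles. Both belong to families of near-identical copies whose reads the counting could split, so their values are uncertain. Cyp2a1 measured 1325 and 1613 CPM in PP and PC nuclei of DA-1, 2381 and 2925 in DA-2, 3203 and 3001 in LEW-1, and 1367 and 1585 in LEW-2. Cyp2d2 measured 645 and 945, 1159 and 1300, 1661 and 1500, and 1260 and 1477 CPM in the same order. Each was higher in PC nuclei of 3 rats and lower in LEW-1, and the zones overlapped widely.

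The fit still called both, at 0.38 ± 0.10 for Cyp2a1 (edgeR adjusted p = 0.0031) and 0.40 ± 0.10 for Cyp2d2 (edgeR adjusted p = 0.0025). TMM scaling, however, moved the median of all genes by 0.21 on this contrast, and the mean log2 ratio of CPM was 0.17 for Cyp2a1 and 0.20 for Cyp2d2. Within hepatocyte-like nuclei neither passed (0.30 ± 0.12, edgeR adjusted p = 0.065, and 0.19 ± 0.12, edgeR adjusted p = 0.28). The scaling shift there was 0.19, and the mean log2 ratio of CPM was 0.12 for Cyp2a1 and 0.0097 for Cyp2d2, which was higher in PC nuclei in 1 of 4 rats. Within unnamed nuclei, where the scaling shift was 0.0083, both did (0.42 ± 0.07, edgeR adjusted p = 1e-07, and 0.28 ± 0.07, edgeR adjusted p = 0.002).

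In deep immune-enriched cells Cyp2a1 stood at 569 CPM (536 to 603) in PC and 479 (453 to 506) in PP cells of DA and at 576 (556 to 597) and 485 (476 to 494) in LEW, a log2 ratio of 0.25 in both. Cyp2d2 was lower in PC cells, at 333 (308 to 360) against 443 (418 to 469) in DA and 485 (467 to 504) against 522 (513 to 531) in LEW. Over the Visium end groups the log2 ratio was 0.060 and 0.039 for Cyp2a1 and -0.029 and -0.075 for Cyp2d2. Cyp2a1 thus leaned to the pericentral end by a small step in pooled nuclei, deep cells and both sections, while Cyp2d2 leaned to it in pooled nuclei and away from it in deep cells and both sections. In TLH cells Cyp2a1 did not pass (-0.14 ± 0.08, edgeR adjusted p = 0.40) and was lower in PC in 3 of 4 rats (mean log2 ratio -0.11).

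Nr1i3 encodes CAR, the receptor that responds to phenobarbital. PP and PC nuclei held 619 and 1034 CPM in DA-1, 361 and 681 in DA-2, 251 and 336 in LEW-1, and 364 and 537 in LEW-2. The PC level was higher within each rat, but the zones overlapped between rats. The fitted difference was 0.87 ± 0.10 (edgeR adjusted p = 5.9e-08). It was seen within the unnamed nuclei, in which PP and PC levels were 658 and 1853, 401 and 1191, 356 and 799, and 402 and 814 CPM (1.32 ± 0.08, edgeR adjusted p = 6.5e-55). In hepatocyte-like nuclei the levels were 266 and 169, 119 and 112, 76.2 and 31.3, and 40.8 and 48.4 CPM, lower in PC in 3 of 4 rats, a difference of -0.37 ± 0.20 that did not pass (edgeR adjusted p = 0.19). Deep immune-enriched cells held 85.5 CPM (73.1 to 99.3) in PC and 36.2 (29.3 to 44.3) in PP cells of DA and 71.1 (64.2 to 78.6) and 21.3 (19.5 to 23.2) in LEW. The Visium end groups went from 26.7 to 41.0 CPM and from 21.3 to 43.0. Deep cells and spots thus shared the direction of the unnamed nuclei. Yet the immune-enriched parenchymal cells were mostly hepatocyte-like: they held 406 of the 414 Nr1i3 UMIs in LEW PC cells, and all 171 in DA. Hepatocyte-like cells of these libraries had a mean log2 ratio of 1.48. Hepatocyte-like TLH cells were also higher in PC in 4 of 4 rats (mean log2 ratio 0.80), unlike hepatocyte-like nuclei.

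Nr1i2 encodes PXR, the receptor for pregnanes and many drugs, and was the one member higher in PP nuclei. PP and PC nuclei held 547 and 278 CPM in DA-1, 564 and 303 in DA-2, 298 and 145 in LEW-1, and 359 and 203 in LEW-2. Every rat had the lower level in PC nuclei. The difference was -0.73 ± 0.09 (edgeR adjusted p = 4e-07), and -0.93 as the mean log2 ratio of CPM. Within forms it was -1.18 ± 0.20 in hepatocyte-like nuclei (edgeR adjusted p = 9.9e-06), with 116 and 45.0, 200 and 83.8, 142 and 38.8, and 55.6 and 38.2 CPM. In unnamed nuclei it was -0.33 ± 0.08 (edgeR adjusted p = 0.00066), with 594 and 498, 624 and 499, 393 and 306, and 394 and 296 CPM. Deep immune-enriched cells held 43.0 CPM (34.4 to 53.1) in PC and 65.9 (56.4 to 76.5) in PP cells of DA and 31.8 (27.2 to 37.0) and 44.2 (41.7 to 46.9) in LEW. The Visium end groups showed next to no slope, with 67.2 and 64.7 CPM in A and 76.2 and 70.3 in B. The 2 related receptors, CAR and PXR, therefore pointed to opposite ends of the lobule in pooled nuclei and in deep cells.

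Ahr encodes the receptor for dioxins and other planar aromatics. It held 326 and 498 CPM in PP and PC nuclei of DA-1, 155 and 367 in DA-2, 126 and 327 in LEW-1, and 83.9 and 196 in LEW-2. It was higher in PC nuclei of each rat (1.31 ± 0.12, edgeR adjusted p = 2.5e-09). The difference was seen in unnamed nuclei, at 349 and 825, 160 and 579, 170 and 759, and 86.8 and 252 CPM (1.70 ± 0.09, edgeR adjusted p = 4.9e-39). In hepatocyte-like nuclei the levels were 111 and 153, 126 and 131, 54.4 and 43.4, and 59.3 and 98.1 CPM and did not pass (0.36 ± 0.19, edgeR adjusted p = 0.19). Deep cells held 175 CPM (158 to 195) in PC and 52.0 (43.6 to 61.6) in PP of DA, and 107 (98.7 to 116) and 26.7 (24.7 to 28.8) in LEW. The Visium end groups went from 24.1 to 39.6 and from 16.6 to 37.9 CPM.

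**Figure D1:**
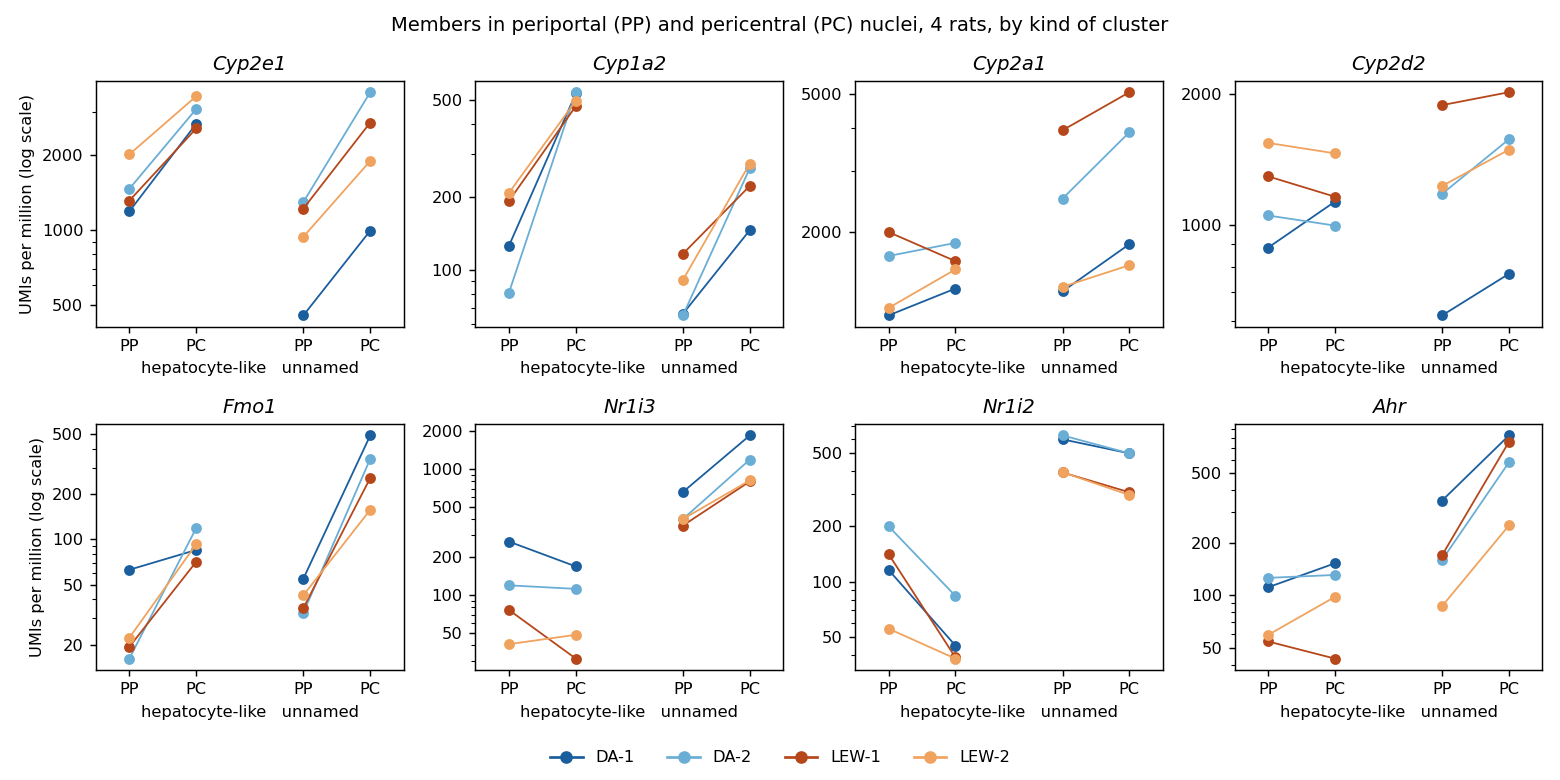
Level of each member in CPM (log axis) in periportal (PP) and pericentral (PC) nuclei, for hepatocyte-like clusters on the left and unnamed parenchymal clusters on the right of each panel, with 1 line per rat. Lines for Cyp2e1 and Cyp1a2 slope upward in both forms, those for Nr1i3 and Ahr do so in all 4 rats only in the unnamed form, and those for Nr1i2 slope downward in both.

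Over the pooled nuclei, 7 members were called higher in PC and 1 in PP, where 36.8% of 9701 genes tested were called, 19.9% toward PC and 16.9% toward PP. All 8 stayed called without any single rat. Without the rat as a block, 3 were called (Cyp2e1, Cyp1a2 and Fmo1), of 103 genes in all. Within hepatocyte-like nuclei 4 members were called (3 PC, 1 PP), beside 18.6% of 6148 genes (6.96% PC, 11.7% PP). Within unnamed nuclei all 8 were called (7 PC, 1 PP), beside 5.49% of 9398 genes toward PC and 5.5% toward PP. In the deep immune-enriched cells 5 members passed a 2-fold ratio toward PC in both libraries (Cyp2e1, Cyp1a2, Fmo1, Nr1i3 and Ahr), against 1.23% of 3004 genes, and none toward PP, against 0.932%. Over the Visium end groups Fmo1 alone passed 2-fold in both sections, against 0.218% of 6893 genes.

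**Figure D2:**
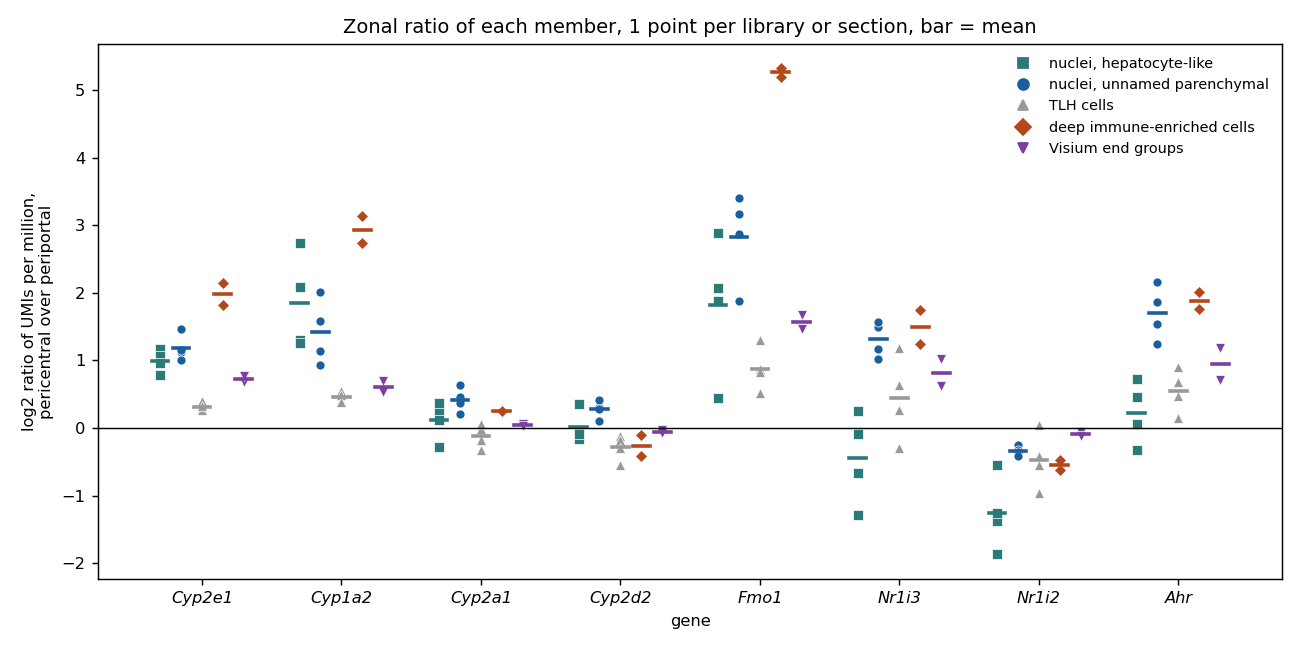
Log2 ratio of CPM, pericentral over periportal, for each member in 5 materials, 1 point per library or section and a bar at the mean. Fmo1 reaches 5.32 in deep immune-enriched cells, Cyp2a1 and Cyp2d2 lie between -0.41 and 0.25 in the deep cells and near 0 in the Visium end groups, and Nr1i2 lies below 0 in all nuclei and deep cells.

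Profiles over 10 equal bins of spots show where along the order the members changed. Cyp2e1 went from 1135 CPM in bin 1 to 2132 in bin 10 of section A and from 1206 to 2504 in section B. Cyp1a2 went from 629 to 1062 and from 632 to 1216, and Fmo1 from 39.3 to 143 and from 30.4 to 154. Glul, one of the genes that set the order, stood apart with 150 CPM in bin 9 and 397 in bin 10 of section A. Nr1i3 went from 26.9 to 46.7 and from 20.8 to 60.3 CPM, with 40.1 in bin 9 of section B, and Ahr from 24.4 to 46.4 and from 14.5 to 46.4. Nr1i2 was highest inside the order, at 78.7 CPM in bin 5 of section A and 81.4 in bin 3 of section B, with 60.8 and 64.0 in bin 10, and its counting errors overlapped between most bins. Mean log2 ratios of the end groups were 0.72 ± 0.07 for Cyp2e1, 0.61 ± 0.11 for Cyp1a2, 1.57 ± 0.15 for Fmo1, 0.82 ± 0.28 for Nr1i3, 0.95 ± 0.33 for Ahr and -0.085 ± 0.044 for Nr1i2 (SD, 2 sections). The pericentral groups held more endothelial markers (480 and 482 CPM against 415 and 436) and mesenchymal markers (1127 and 1231 against 970 and 1048). They held fewer macrophage markers (1308 and 1434 against 1707 and 1850) and hepatocyte markers (241604 and 242493 against 261312 and 265356). The part of these markers in the ratios was not tested.

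**Figure D3:**
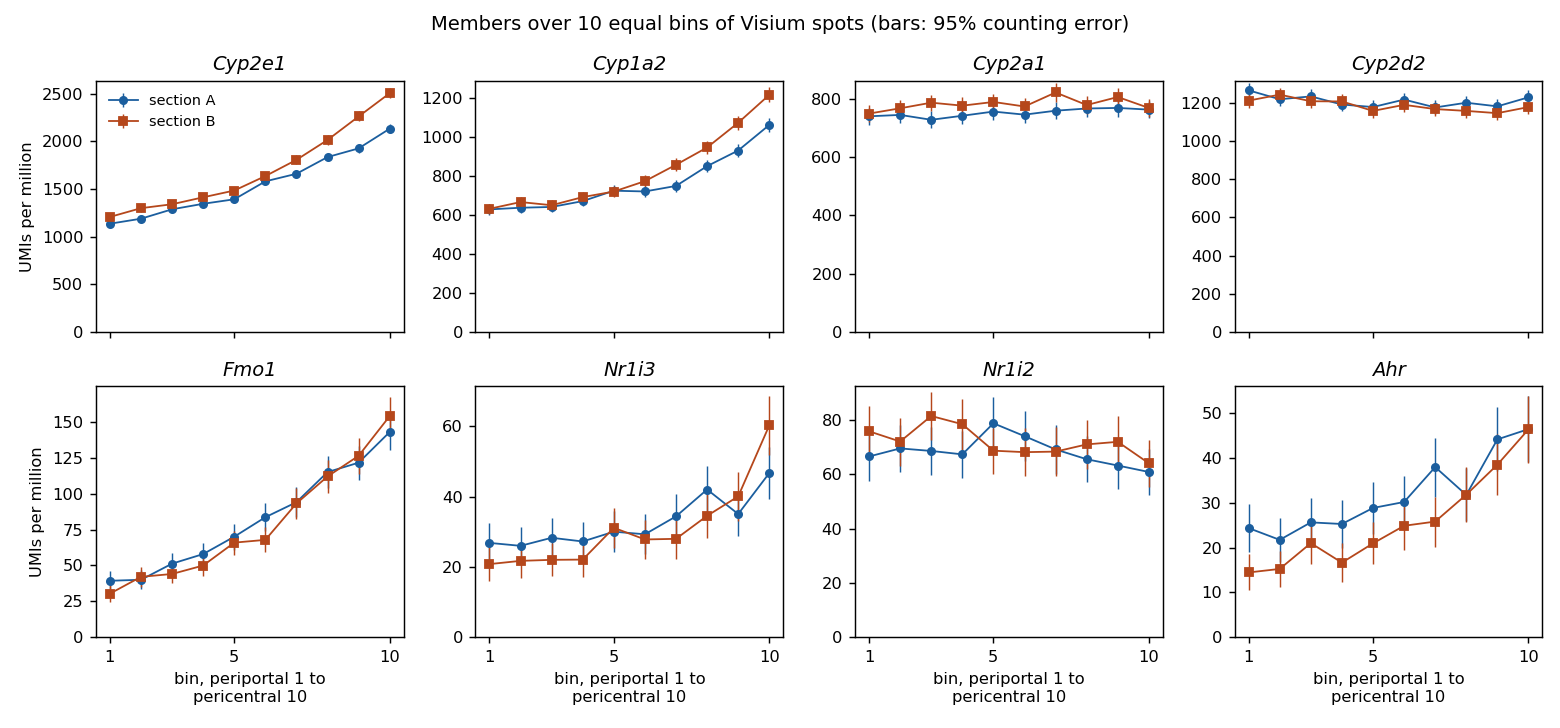
Level of each member in CPM over 10 equal bins of Visium spots, from periportal (bin 1) to pericentral (bin 10), in sections A and B, with bars for 95% counting error. Cyp2e1, Cyp1a2, Fmo1, Nr1i3 and Ahr stand higher in bin 10 than in bin 1 in both sections, and Nr1i2 stands lower.

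The genes whose 10-bin profile was most like a member's were found among 2726 genes, by the lower Pearson r of the 2 sections. For Cyp2e1 they were LOC100910877 (0.994), LOC501233 (0.993) and Sult1e1, an oestrogen sulphotransferase (0.990). For Cyp1a2 they were AABR07048474.1 (0.988), a copy of Mup4 (0.988) and Cyp2c22 (0.986), and for Fmo1 Apoa2 (0.991), Cela1 (0.991) and LOC100910877 (0.988). The enzymes of shallow slope had weaker partners: Snx2 (0.809), Cript (0.799) and Rup2 (0.747) for Cyp2a1, and Hpx (0.854), Hp (0.787) and Slc25a38 (0.755) for Cyp2d2. Among the receptors, Nr1i3 was most like Gulo (0.936), C1r (0.934) and Ugt1a5 (0.933). Ahr was most like the organic anion carrier Slco1b2 (0.961), Cyp2c12 (0.958) and Gulo (0.956), and Nr1i2 like Serpina11 (0.741) and Insig1 (0.717). These r describe 10 bins that share spots and depth, and carry no test.

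In TLH cells Cyp2e1, Cyp1a2, Fmo1, Nr1i3, Ahr and Nr1i2 had smaller zonal ratios than in pooled nuclei or deep cells, while Cyp2d2 was as low in PC cells (mean log2 ratio -0.28) as in deep cells (-0.26). The split gave 2316 to 3226 PC and 218 to 647 PP cells per rat. Called higher in PC were Cyp2e1 (0.28 ± 0.08, edgeR adjusted p = 0.02), Cyp1a2 (0.43 ± 0.08, edgeR adjusted p = 1.9e-04), Fmo1 (0.76 ± 0.12, edgeR adjusted p = 9.5e-07) and Nr1i3 (0.52 ± 0.13, edgeR adjusted p = 0.01, higher in 3 of 4 rats and lower in LEW-2). Cyp2d2 (-0.32 ± 0.08, edgeR adjusted p = 0.0088, lower in 4 of 4 rats) and Nr1i2 (-0.47 ± 0.11, edgeR adjusted p = 0.0046, lower in 3 of 4 rats) were called lower. These 6 members stand beside 3.47% of 8877 genes called, 1.42% toward PC and 2.05% toward PP. No member was called lower in hepatocyte-like cells, with Sds left out of the split, at 3000 or more UMIs, or without cells holding other-class markers. Without LEW-2, 3 stayed called (Cyp1a2, Fmo1 and Nr1i3), and without the rat as a block edgeR called none, with 3 at an unadjusted p under 0.05, while DESeq2 with the block called 5. Fmo1 showed the separation plainly: PP and PC cells held 58.5 and 107 CPM in DA-1, 53.3 and 76.4 in DA-2, 56.9 and 101 in LEW-1, and 45.7 and 112 in LEW-2. In hepatocyte-like TLH cells the differences were larger for Cyp2e1 (0.57 ± 0.06, edgeR adjusted p = 2.7e-21), Cyp1a2 (0.88 ± 0.09, edgeR adjusted p = 3.7e-19), Fmo1 (1.24 ± 0.19, edgeR adjusted p = 2.4e-08) and Nr1i3 (0.75 ± 0.21, edgeR adjusted p = 0.016), the 4 members called there beside 3.79% of 5521 genes, 1.97% toward PC. In unnamed TLH cells they were smaller. The fitted difference was 0.14 ± 0.04 for Cyp2e1 (higher in PC in 3 of 4 rats, edgeR adjusted p = 0.046), 0.22 ± 0.07 for Cyp1a2 (2 of 4 rats, edgeR adjusted p = 0.094), 0.50 ± 0.12 for Fmo1 (4 of 4 rats, edgeR adjusted p = 0.0048) and 0.47 ± 0.13 for Nr1i3 (2 of 4 rats, edgeR adjusted p = 0.031). Nr1i2 was lower there (-0.51 ± 0.12, 4 of 4 rats, edgeR adjusted p = 0.0013). Beside these 4 calls stand 2.05% of 8179 genes, 1.0% toward PC and 1.05% toward PP.

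Droplet libraries can hold RNA that came free of its cell, so the members were also read in cells that are not hepatocytes. The origin of the RNA found there was not tested. Endothelial-like TLH cells held 69.6% to 83.4% of the parenchymal level of Cyp2e1, 76.1% to 87.1% of that of Fmo1 and 48.5% to 77.0% of that of Nr1i3. Endothelial-like nuclei held 60.1% to 71.4%, 66.3% to 114% and 70.0% to 133% of the parenchymal nuclei's levels. Levels of these genes outside the parenchyma are thus not read as expression in TLH cells or nuclei. In the immune-enriched libraries the same shares were 4.91% to 18.8% for Cyp2e1, 0% to 13.6% for Fmo1 and 21.7% to 24.1% for Nr1i3.

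Ahr had another distribution. In immune-enriched libraries, endothelial-like cells held 206 CPM (172 to 244, 134 UMIs in 221 cells) in DA and 131 (113 to 152, 179 UMIs in 352 cells) in LEW, against 104 and 41.3 in all deep parenchymal cells. The PC cells among these held 175 CPM in DA and 107 in LEW, nearer to the endothelial-like level, and the PP cells 52.0 and 26.7. Macrophage-like cells held 16.6 and 7.62 CPM, lymphocyte-like cells 30.2 and 22.2 and mesenchymal-like cells 47.3 and 94.4. Median depth was 2534 to 3202 UMIs in the endothelial-like and 9198 to 10152 in the macrophage-like cells. Endothelial-like nuclei held 258 to 419 CPM of Ahr against 131 to 337 in parenchymal nuclei, 120% to 203% of their level. The unnamed parenchymal nuclei alone held 151 to 493 CPM, above the endothelial-like nuclei in DA-1 (489 against 404) and LEW-1 (493 against 406) and below them in DA-2 (308 against 419) and LEW-2 (151 against 258). Mesenchymal-like nuclei held 82.2% to 162% and macrophage-like nuclei 62.1% to 165% of the pooled parenchymal level, and endothelial-like TLH cells 93.5% to 116%. None of this was tested, since clusters are named from these counts. In the lobule, PC nuclei and spots also held more endothelial markers, and the part of that in the Ahr ratio was not tested.

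**Figure D4:**
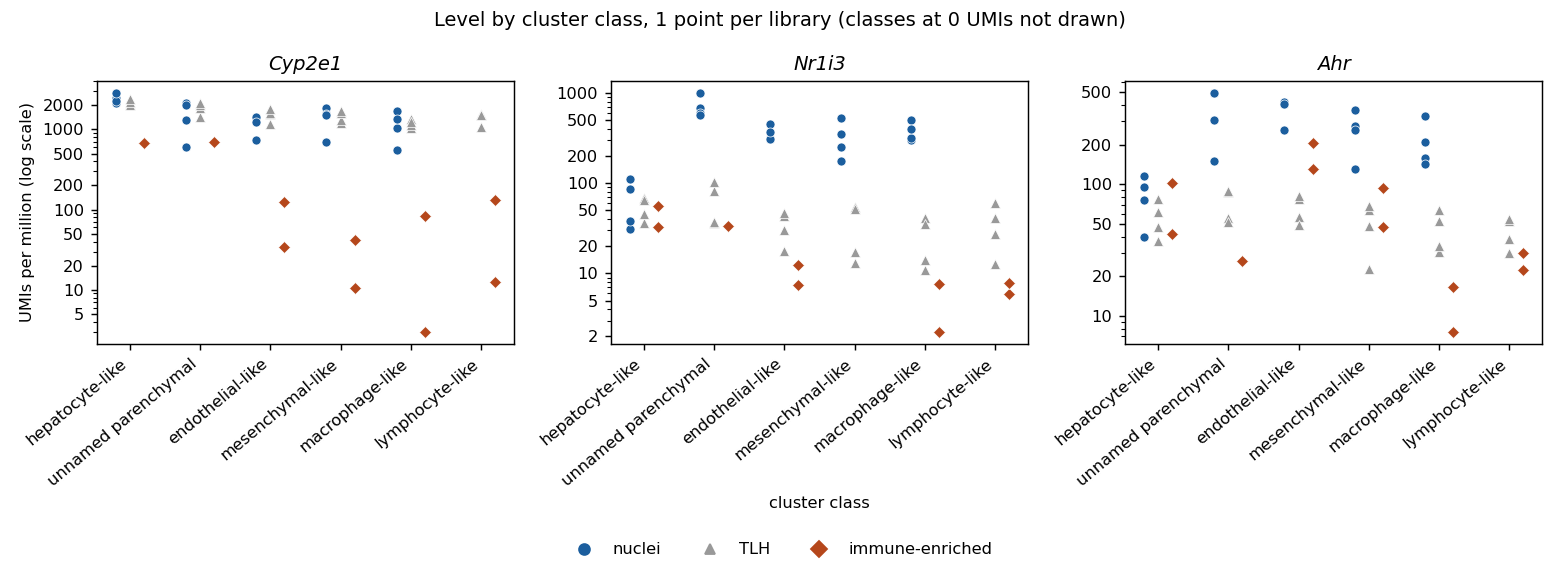
Level of Cyp2e1, Nr1i3 and Ahr in CPM (log axis) by cluster class, 1 point per library, for nuclei, TLH and immune-enriched cells, with classes at 0 UMIs not drawn. Cyp2e1 and Nr1i3 drop outside the parenchyma in the immune-enriched libraries, where endothelial-like cells hold the most Ahr of the classes drawn, 206 and 131. Parenchymal cells are not split by zone here.

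Other genes of the same pathways were read from lists. Among 19 other phase I monooxygenases tested in pooled nuclei, 9 were higher in PC and 2 in PP nuclei, with a median log2 difference of 0.19 against -0.056 over all genes. The counts were 6 PC and 3 PP of 18 in unnamed nuclei (median 0.065), 1 and 1 of 14 in hepatocyte-like nuclei (0.11), and 0 and 2 of 17 in TLH cells (-0.18), and the median was -0.22 over the 8 genes with a value in deep cells. The shares of all genes called toward PC and toward PP were 19.9% and 16.9% in pooled nuclei and 5.49% and 5.5% in unnamed ones. They were 6.96% and 11.7% in hepatocyte-like nuclei and 1.42% and 2.05% in TLH cells. Fmo2 (2.26) and Cyp2b2 (1.82) were the largest, followed by Cyp3a9 (1.51), and Cyp2f4 went the other way (-1.37). In unnamed nuclei alone these were 2.91, 2.26, 1.31 and -1.21. Cyp2b2 shares near-identical sequence with Cyp2b1 and is uncertain. Among 11 genes known as CAR or PXR targets, 7 were higher in PC and 2 in PP nuclei (median 0.45), with Ephx1, the microsomal epoxide hydrolase, at 0.97 and the transporters Abcb1a at -0.56 and Abcc2 at -0.26. There were 6 PC and 3 PP in unnamed nuclei (median 0.38), beside 5.49% and 5.5% of all genes, 2 PC and 3 PP of 9 in hepatocyte-like nuclei (median -0.36), beside 6.96% and 11.7%, and 0 PC and 1 PP of 11 in TLH cells (median -0.14), beside 1.42% and 2.05%. The median was -0.11 over the 7 genes with a value in deep cells. Of 3 AHR battery genes tested in pooled nuclei, only Nqo1, a quinone reductase, was called, at 1.31, and the median was -0.12. In unnamed nuclei 1 of 3 was called, toward PC (median 0.15). None of 2 was called in hepatocyte-like nuclei (median 0.066) or in TLH cells (median 0.18).

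RNA for the proteins that feed P450s with electrons and haem lay on the same side as that of most of the enzymes. Of 9 genes, 8 were higher in PC nuclei and none in PP (median 0.76), beside 19.9% and 16.9% of all genes. Pgrmc1, a haem-binding P450 partner (1.15), Cyb5r3 (0.96) and the electron donor Cyb5a (0.91) led. In unnamed nuclei 7 were called, all toward PC, beside 5.49% of all genes toward PC and 5.5% toward PP. Cyb5a was at 0.29 there and Alas1, the first enzyme of haem synthesis, at 0.99, while Pgrmc1 (0.067) and Cyb5r3 (0.16) did not pass. In hepatocyte-like nuclei 4 were higher in PC and 1, Alas1 (-0.55), in PP (median 0.43), beside 6.96% and 11.7% of all genes. In TLH cells the median was 0.015 with none called by edgeR and 1 at an unadjusted p under 0.05. Among 14 receptor partners and coregulators, 2 were higher in PC (the AHR chaperones Hsp90ab1 at 0.72 and Ptges3 at 0.54) and 5 in PP nuclei (median -0.22), beside 19.9% and 16.9% of all genes, led by the coactivator Ppargc1a (-2.69), Nr0b2 (-0.62) and Rxrb (-0.45). Within forms few were called, 0 PC and 2 PP of 14 in unnamed nuclei (median -0.036) and 0 PC and 1 PP of 9 in hepatocyte-like ones (median -0.40). In unnamed nuclei Hsp90ab1 was at -0.27 and Ptges3 at 0.042, and Ppargc1a kept -2.64. Wnt targets and regulators (4 of 6 higher in PC, 1 in PP, median 1.48) and periportal reference genes (1 of 12 in PC, 8 in PP, median -0.49) checked the split in pooled nuclei. Rhbg was at 3.25, Tbx3 at 2.47, Axin2 at 1.63 and Tcf7l2 at -0.61. Gls2 was at -1.44, Uroc1 at -0.97, Arg1 at -0.77 and Hpd at 0.71. In TLH cells 1 of 4 Wnt list genes was called, toward PC, beside 1.42% of all genes. Of the 12 periportal reference genes 6 were called there, toward PP, beside 2.05%. The 7 lists hold 89 genes, and some genes stand in more than 1 list.

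Between strains, the 3 receptors were lower in LEW than in DA TLH cells, and edgeR called no enzyme there with the low-count filter and no block. In TLH parenchymal cells Nr1i3 measured 76.4 and 95.1 CPM in DA and 36.4 and 39.1 in LEW. Nr1i2 measured 91.5 and 79.6 against 52.5 and 55.1, and Ahr 83.1 and 83.3 against 48.5 and 50.6. For each receptor both DA rats were above both LEW rats, an order for which the share of all genes was not counted. The limit on the mitochondrial share was higher for LEW cells (40%) than for DA cells (30% and 20%), and its part in these differences was not tested. The log2 differences were -1.17 ± 0.16 for Nr1i3 (edgeR adjusted p = 0.0068), -0.64 ± 0.14 for Nr1i2 (edgeR adjusted p = 0.038) and -0.72 ± 0.13 for Ahr (edgeR adjusted p = 0.023). These 3 members stand beside 4.18% of the 9869 genes tested that were called in either direction, and 2.2% of the 9869 that were called toward DA. None of the 3 stayed called without LEW-1 (edgeR adjusted p = 0.12, 0.2 and 0.15) or without LEW-2 (edgeR adjusted p = 0.081, 0.16 and 0.12). In hepatocyte-like TLH cells Nr1i3 (-0.71 ± 0.19, edgeR adjusted p = 0.035) and Ahr (-0.74 ± 0.19, edgeR adjusted p = 0.034) were called, beside 3.77% of 7857 genes. In PP cells alone no member was called, with Nr1i3 at -0.43 and Nr1i2 at -0.025. None was called in cells with at least 3000 UMIs, and 1 was called without cells holding other-class markers.

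Among the enzymes, Cyp1a2 stood at 264 and 262 CPM in DA and 458 and 345 in LEW TLH cells, apart but not called (0.63 ± 0.16, edgeR adjusted p = 0.065). It was called under DESeq2 (0.64, DESeq2 adjusted p = 0.041) and without the filter on low counts (0.63, edgeR adjusted p = 8.7e-04). Cyp2e1 (0.29) was also apart, at 1703 and 1883 CPM in DA and 2105 and 2209 in LEW. It was not called, nor were Fmo1 (0.28), Cyp2d2 (0.19) and Cyp2a1 (-0.078). In nuclei none of the 8 was called by edgeR (0 at an unadjusted p under 0.05) or by DESeq2 (1 at an unadjusted p under 0.05), beside 1.36% of 10684 genes. Nr1i3 stood at 657 and 429 CPM in DA and 235 and 424 in LEW nuclei (-0.73 ± 0.45, edgeR adjusted p = 0.64). Nr1i2 stood at 370 and 376 against 156 and 272 (-0.79 ± 0.41, edgeR adjusted p = 0.55), and Ahr at 337 and 227 against 200 and 131 (-0.71 ± 0.45, edgeR adjusted p = 0.65). Both DA rats were above both LEW rats for each receptor, with Nr1i3 of DA-2 and LEW-2 only just apart. Enzymes were apart too: Cyp2d2 was higher in LEW nuclei (804 and 1174 against 1422 and 1343 CPM) and Fmo1 lower (128 and 113 against 88.7 and 84.8). The share of all genes so separated was not counted, in nuclei or in TLH cells.

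Since LEW-1 nuclei were mostly of the hepatocyte-like form, the strains were also set side by side within forms. In hepatocyte-like nuclei Nr1i3 was at 111 and 87.3 CPM in DA and 31.0 and 37.6 in LEW, a difference of -1.57 ± 0.24 (edgeR adjusted p = 0.0037) and the only member called there, beside 2.14% of 7438 genes, 1.25% toward DA. In unnamed nuclei Nr1i2 was at 574 and 583 against 348 and 356 CPM (-0.80 ± 0.27, edgeR adjusted p = 0.28) and Nr1i3 at 1004 and 677 against 609 and 566 (-0.62, edgeR adjusted p = 0.46), apart but not called, where 0.493% of 10134 genes were. Other receptors overlapped between strains: Nr1i2 in hepatocyte-like nuclei, at 50.04 and 90.7 in DA and 50.6 and 42.7 CPM in LEW, and Ahr in unnamed nuclei, at 489 and 308 against 493 and 151, where LEW-1 was the highest rat. In the deep immune-enriched cells, 1 library per strain, PC cells gave a LEW over DA log2 ratio of -0.26 for Nr1i3, -0.43 for Nr1i2 and -0.71 for Ahr, and PP cells -0.77, -0.57 and -0.96. No member passed 2-fold in either zone, beside 3.08% of 4152 genes toward LEW and 1.76% toward DA in PC cells, and 3.43% and 2.81% of 6934 in PP cells. Over all deep cells, including those of neither zone, Ahr (-1.33) and Fmo1 (-1.12) passed 2-fold toward DA, beside 2.72% of 7523 genes, with 2.76% toward LEW. The share of PC cells differed between these libraries, and within zones Fmo1 was at -0.038 and 0.084. Of the list genes, Nqo1 was lower in LEW nuclei (-2.28, edgeR adjusted p = 0.0043) and LEW TLH cells (-2.97, edgeR adjusted p = 7e-04), and Por, the P450 reductase, in TLH cells (-0.69, edgeR adjusted p = 0.032).

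**Figure D5:**
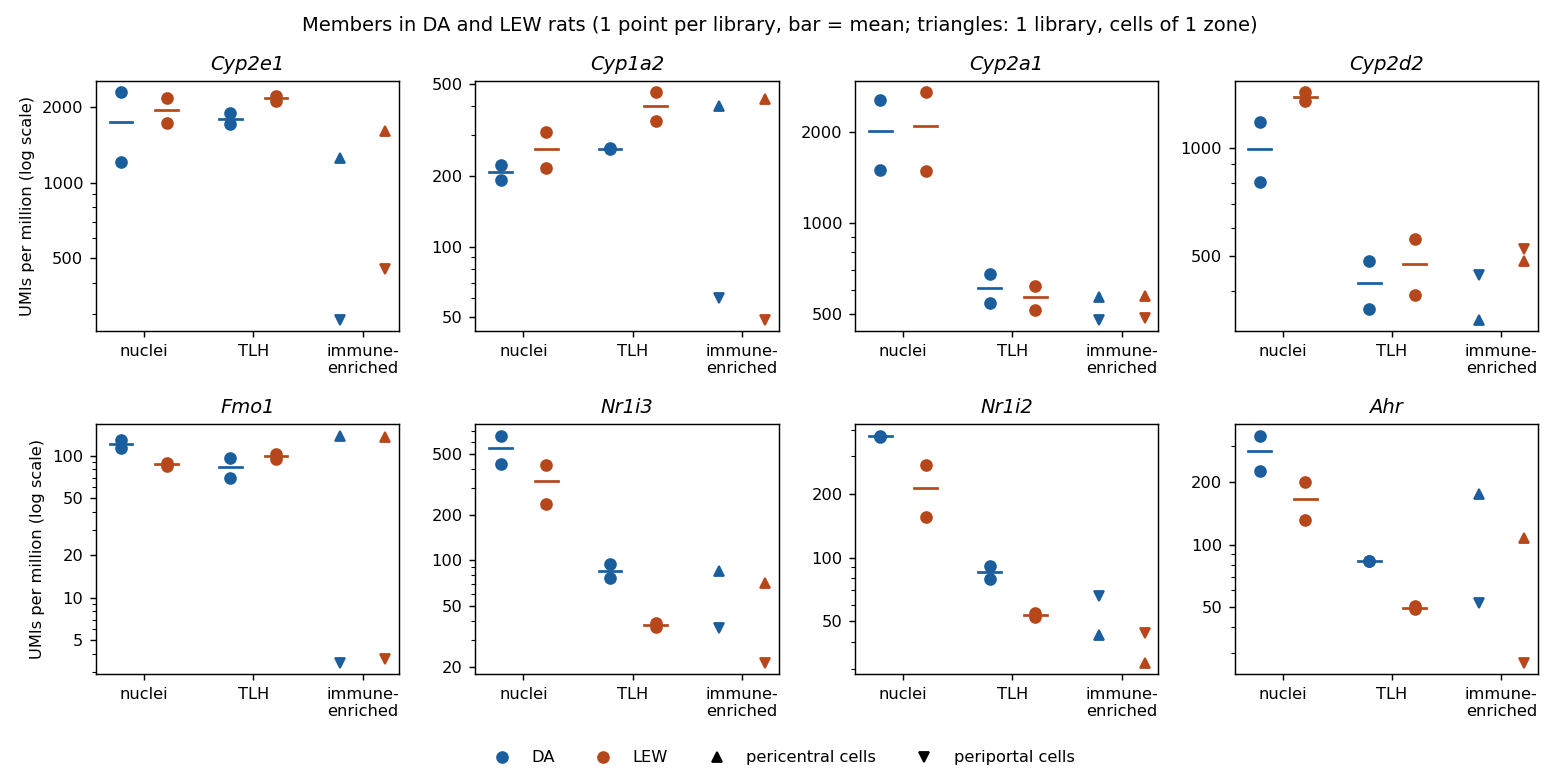
Level of each member in CPM (log axis) in DA and LEW libraries of parenchymal nuclei and TLH cells, 1 point per rat with a bar at the mean, and in PC and PP cells of the immune-enriched library of each strain (triangles). For Nr1i3, Nr1i2 and Ahr the DA points lie above the LEW points in TLH cells and in nuclei, an order for which the share of all genes was not counted.

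The zonal difference itself was compared between strains in nuclei. Cyp1a2 was less steep in LEW by 0.81 on the log2 scale (-0.81 ± 0.18, zone by strain term, edgeR adjusted p = 0.01), the only member called, beside 0.66% of 9701 genes, 0.412% toward a smaller difference in LEW. Its PP level was 72.1 and 67.3 CPM in DA and 145 and 103 in LEW, with PC levels between 334 and 393. The adjusted p was 0.2 without DA-2 and 0.16 without LEW-1, and neither form called it alone (-1.17 ± 0.33, edgeR adjusted p = 1, in hepatocyte-like and -0.38 ± 0.19, edgeR adjusted p = 0.73, in unnamed nuclei). In the deep immune-enriched cells the ratio of Cyp1a2 was larger in LEW (3.14 against 2.73). For Fmo1 the term was -0.64 ± 0.23 in pooled nuclei (edgeR adjusted p = 0.24) and -0.95 ± 0.22 in unnamed ones (edgeR adjusted p = 0.0057), where 30 of 9398 genes were called. In hepatocyte-like nuclei its sign was the opposite, and 0 genes were called.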

How the data were processed

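The authors aligned reads to the rat build Rnor 6.0 with Cell Ranger 3.1.0, or Space Ranger 1.1.0 for the sections (per the submitters' processing notes), and deposited UMI counts, not normalized, for each gene in each barcode or spot called by that software, before their own limits on depth and mitochondrial share. The counting of strand or copies is not given in the sources used here. The matrices of TLH and immune-enriched cells lack gene labels, so each row was matched by position to the 32883 genes listed for the nuclei. The 12 libraries held 61441846 to 92484173 UMIs (TLH), 48255870 and 60005133 (immune-enriched), 8039397 to 15186970 (nuclei), and 34449562 and 34827603 (Visium).

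The lower bound on UMIs and the upper bound on the mitochondrial share were, for TLH cells, 1500 and 30% (DA-1), 2000 and 20% (DA-2) and 2000 and 40% (LEW), then 1000 and 50% for the immune-enriched libraries and 1000 and 10% for nuclei. Each library was clustered with scanpy 1.11.5 and leidenalg 0.10.2 (2000 variable genes, 30 components, 20 neighbours, resolution 1.5) without the 8 members and the 5 genes of the split. Clusters were named from marker lists by a rule set with the counts in hand, and macrophage clusters led by B cell, plasmacytoid or neutrophil genes stayed unnamed. Unnamed parenchymal clusters were summed with hepatocyte-like ones, a choice made after seeing the data, and each form was also fitted alone. The study called doublets and kept them, and here cells holding 2 or more UMIs of other classes' markers were left out in an alternative.

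UMIs were summed per rat and zone or per rat and compared in edgeR 4.0.16 (quasi-likelihood, TMM, robust, its own low-count filter, Benjamini-Hochberg over all genes, threshold 0.05; R 4.3.3), with the rat as a block for zones. The steps were tested on simulated counts with a fixed spread, the same for all genes, which need not match the spread between rats. Of 2-fold zonal changes set there, 91.0% were recovered in nuclei and 79.1% in TLH cells. Of 2-fold strain changes 67.2% and 64.2% were recovered, and of 1.5-fold strain changes 14.9% and 11.9%. Ratios of CPM in the immune-enriched cells and Visium spots of at least 5000 UMIs had no test, and a 2-fold ratio was counted where each library had at least 100 UMIs over both ends. The members and lists were chosen with earlier results of these data known. Named beside the members were up to 3 called genes of each list with the largest change in each direction, and the 3 genes most like each member over 10 bins, of which 1 is not reported here. A few list genes outside this rule were added to compare forms and were chosen after their values were seen. Alternatives were DESeq2 1.42.0, other size factors, filters, splits, blocks and left-out libraries.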

Additional observations from a re-analysis of the deposited data

Results flagged for a closer look

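The zonal difference of Cyp1a2 in parenchymal nuclei was smaller in LEW than in DA rats by a test of the difference itself, with a zone by strain term of -0.81 ± 0.18 (log2, SE, edgeR adjusted p = 0.01). Leaving out 1 rat at a time gave terms between -1.03 and -0.58, with edgeR adjusted p between 0.001 and 0.2. It was not called under a strict split that asked for 2 or more UMIs of one side and 0 of the other (-0.93, edgeR adjusted p = 0.077).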

How the results depend on the processing

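Of the alternative values of single members, 591 kept direction and, where tested, their side of the threshold or, where untested, stayed within the spread. Another 66 lost the call, 14 gained it, 33 changed sign and 15 untested ones moved beyond the spread. Causes were not tested.

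For the zonal fit of nuclei (3571 genes called, 8 members), DESeq2 called 1989 genes, 66.0% of them toward PC against 54.1%, Oat left out of the split 1583, nuclei with at least 1500 UMIs 2308, the hepatocyte-like form 1145 with 4 members and the unnamed form 1033. With no replicate block it called 103 genes and 3 members. Nr1i3 changed sign in the hepatocyte-like form (-0.37). For TLH zones (308 genes, 6 members), DESeq2 called 199 genes, Sds left out 24 with 2 members, cells with at least 3000 UMIs 98 with 2 members, cells without other-class markers 83, the unnamed form 168, and left-out rats 113 to 321 genes with 3 to 6 members. With no replicate block it called 1 gene and 0 members. Cyp2a1 changed sign without other-class cells (0.060) and in the hepatocyte-like form (0.061).

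For strains in nuclei (145 genes, 0 members), DESeq2 called 244 genes, no filter on low counts 536, PP nuclei 53, the unnamed form 50, left-out rats 51 to 267, and the hepatocyte-like form 1 member. The replicate block called 531 genes. Left-out rats gave -0.083 to 0.68 for Cyp2e1, negative without DA-1 (-0.073) or LEW-1, -0.025 to 0.75 for Cyp1a2, negative without LEW-1, and -0.52 to 0.61 for Cyp2a1, negative without DA-1 (-0.10) or LEW-1. Sign also changed in PC nuclei for Cyp2e1 (-0.029) and Cyp1a2 (-0.018) and in the hepatocyte-like form for Cyp2a1 (-0.11). For strains in TLH cells (413 genes, 3 members), DESeq2 called 4 members, no filter 1114 genes and 4 members (Cyp1a2 beside the receptors in both), PP cells 88 with 0 members, cells with at least 3000 UMIs 0 members, cells without other-class markers 198 with 1 member, and left-out rats 84 to 543 genes with 0 to 2 members. The replicate block called 268 genes and 1 member, Nr1i3, and the crossed block, added after seeing the data, 723 genes and 4 members. The correlation over genes between DA-1 and LEW-1, each as its deviation from the strain mean, was 0.0918 in nuclei and -0.129 in TLH cells. Whether the numbers pair the rats was not tested. Left-out rats gave -0.20 to 0.053 for Cyp2a1, positive without DA-1 or LEW-2 (0.037), and -0.074 to 0.47 for Cyp2d2, negative without DA-1 (-0.040) or LEW-1. Sign also changed for Cyp2a1 in PP cells (0.20) and without other-class cells (0.084), and for Fmo1 in PP cells (-0.041).

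For the difference of zonal folds between strains (64 genes, 1 member), DESeq2 called 35 genes, the strict split 37 with 0 members, the hepatocyte-like form 0 genes and 0 members, the unnamed form 30, and left-out rats 20 to 88 genes with 1 to 2 members, but not always the same: Ahr (0.76) in place of Cyp1a2 without DA-2, Fmo1 (-1.06) in its place without LEW-1, and Cyp1a2 with Fmo1 (-1.02) without DA-1. Sign changed for Fmo1 in the hepatocyte-like form (0.38), for Ahr there (-0.17), and for Nr1i2 under DESeq2 (-0.0085), the strict split (-0.056) and in either form (-0.18 and -0.11). Left-out rats gave Nr1i2 a term of -0.087 to 0.11, negative without DA-1, LEW-1 (-0.017) or LEW-2 (-0.081). Strain ratios of deep cells, with 2 members past 2-fold over all deep cells, had 0 in PC and 0 in PP cells. There Cyp2e1 was at 0.35 in PC and 0.67 in PP cells, Cyp1a2 at 0.094 in PC, Cyp2a1 at 0.018 in PC and 0.019 in PP and Fmo1 at 0.084 in PP, each with a sign other than over all deep cells. Section B alone had 3 members past 2-fold, section A 1.

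With 2 rats per strain and members' RNA in non-parenchymal TLH cells and nuclei, strain differences of the members rest on few libraries, and a p above the threshold does not show that strains were alike.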
